A study of Mus musculus with 24 samples.

Results

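The 10 genes described here are textbook markers of myeloid cells at the borders and in the blood of the brain, as opposed to the microglia of its parenchyma. They were Lyve1, Mrc1, Cd163, F13a1, Pf4 and Ms4a7 for border-associated macrophages, Cd209a and Mgl2 for dendritic cells, and Plac8 and Ccr2 for monocytes. They were chosen by name and looked up by symbol among the 23871 genes counted by cTag-PAPERCLIP and by Ensembl identifier among the 47069 counted by RNA-seq, and all 10 were found in both. In cTag-PAPERCLIP, cells that express Cre make a poly(A)-binding protein fused to GFP, and the mRNA ends held by it are pulled out of tissue lysate with antibodies to GFP. Mice carrying Cx3cr1-Cre and the Ctag-PABP allele gave whole-brain libraries, 2 untreated, 3 after PBS and 3 after lipopolysaccharide (LPS), the bacterial cell wall component that activates innate immunity. The other tagged libraries, 2 each from Gfap-Cre, Gad2-Cre and Camk2a-Cre mice with the same allele, came from cortex. RNA-seq was made from microglia of wild-type C57BL/6 adults, 3 libraries after PBS and 3 after LPS at 1 mg/kg, injected into the peritoneum on 4 consecutive days. These microglia were taken with CD11b beads from perfused brains, 2 brains to a tube. Dose, schedule and age of the tagged mice were not given in the sources used here. A PAPERCLIP library of liver, labelled CL57/B6J, and RNA-seq of Ptbp2-KO cortex at E18.5 lay outside the comparisons.

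The Cx3cr1 promoter is active in microglia, in border macrophages and in many blood monocytes, so the tag does not separate these cells from each other. CD11b, the integrin on which the beads select, is likewise shared by microglia, macrophages, monocytes and neutrophils. Border macrophages lie in the meninges, the perivascular space and the choroid plexus and carry scavenger and lectin receptors that adult microglia hardly express. Dendritic cells at these borders take up antigen through C-type lectins, and monocytes enter tissue through Ccr2, the receptor for the chemokines Ccl2, Ccl7 and Ccl12. Levels of a marker are therefore reported here as levels in the tagged or bead-selected pool, and in such bulk samples fewer cells of a type and less RNA per cell cannot be told apart.

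The 4 genes that passed the test in both assays are shown by the 250 bases before their transcript start, from RefSeq on GRCm38.p6, because their responses fell into a pair that dropped and a pair that rose. Cd209a, on the minus strand of chromosome 8 (chr8:3743395-3748984), and Mgl2, on chromosome 11 (chr11:70130125-70137542), are the pair that fell. Plac8, on the minus strand of chromosome 5 (chr5:100551589-100572253), and Ms4a7, on the minus strand of chromosome 19 (chr19:11321039-11336146), are the pair that rose. The 4 windows follow, 5′ to 3′ along the gene, with matches to GAGGAA, the core that PU.1 binds, in capitals on either strand. They lie at chr8:3748985-3749234, chr11:70130107-70130356, chr5:100572206-100572455 and chr19:11336147-11336396. Most of the Mgl2 window and part of the Plac8 window fall inside the annotated gene.
Cd209a: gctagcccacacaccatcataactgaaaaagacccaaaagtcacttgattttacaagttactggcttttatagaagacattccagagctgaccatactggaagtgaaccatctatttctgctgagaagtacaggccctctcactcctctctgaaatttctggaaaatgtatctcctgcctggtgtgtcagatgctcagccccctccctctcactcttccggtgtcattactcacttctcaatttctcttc
Mgl2: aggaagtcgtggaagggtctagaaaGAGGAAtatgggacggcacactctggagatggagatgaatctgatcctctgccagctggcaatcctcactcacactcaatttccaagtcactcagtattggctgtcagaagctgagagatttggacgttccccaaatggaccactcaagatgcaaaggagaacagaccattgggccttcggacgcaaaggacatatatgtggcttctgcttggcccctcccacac
Plac8: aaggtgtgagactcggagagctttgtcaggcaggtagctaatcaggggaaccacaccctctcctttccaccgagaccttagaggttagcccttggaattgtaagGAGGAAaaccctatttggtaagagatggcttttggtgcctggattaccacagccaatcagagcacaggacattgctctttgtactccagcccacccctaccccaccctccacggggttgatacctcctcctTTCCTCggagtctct
Ms4a7: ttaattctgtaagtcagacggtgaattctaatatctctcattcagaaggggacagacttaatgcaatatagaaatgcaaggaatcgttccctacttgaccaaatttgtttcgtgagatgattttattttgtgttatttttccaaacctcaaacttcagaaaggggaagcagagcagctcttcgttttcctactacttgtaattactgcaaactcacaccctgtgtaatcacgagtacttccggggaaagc
The core occurred once in the Mgl2 window and was found in the Plac8 window on both strands. By the gene positions above, the Mgl2 match and the Plac8 match nearer the window's end lie inside the annotated gene. The core was not found in the windows of Cd209a and Ms4a7, and 23.3% of all 32851 promoters in the table held it within the same length. No window held the paired GAAA core of interferon regulatory factors with any 2 bases between (2.98% of all promoters), TTGCNNAA of C/EBP factors (9.56%) or the NF-kB consensus (0.356%), each searched on both strands. These matches describe letters in a window and say nothing of binding. Of the 10 genes, 9 were in the promoter table.

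Total counts per library were 133456 and 154959 for untreated Cx3cr1-Cre brain, 266330 to 337770 after PBS, 679115 to 1041240 after LPS, and 1250170 to 2133410 for microglial RNA-seq. A single count was thus worth more in the PBS than in the LPS libraries of PAPERCLIP, and low PBS values carry the larger counting error. All 12 homeostatic microglial genes on a fixed list had counts in every Cx3cr1-Cre and microglial library, so the defining genes of the labelled cell type were present. The PBS library number 3 of PAPERCLIP stood apart, with up to 1927 CPM of 6 hepatocyte genes and 2715 CPM of 6 neuronal genes. The highest LPS values of those lists were 36.8 and 512 CPM. The labels do not say that the libraries came from separate animals, and the p-values reflect no more than the variation among libraries, part of which may be technical.

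The markers were counted in the Cx3cr1-Cre line and were nearly absent from the 6 cortical libraries of the other lines. Mrc1, the mannose receptor CD206, had 170 counts in the 2 untreated Cx3cr1-Cre libraries and 1 in all cortical libraries, a ratio of 4698 in CPM (95% counting interval 832 to 186639). Lyve1, a hyaluronan receptor, had 72 counts against 4, a ratio of 497 (186 to 1875), which was 154 for untreated library 1 alone and 896 for library 2 alone. Mgl2, a galactose-binding lectin, had 18 against 2, a ratio of 249 (59.5 to 2210). These intervals cover counting error only.

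Cd163, the haemoglobin-haptoglobin scavenger receptor, had 80 counts in untreated Cx3cr1-Cre brain and none in the cortical libraries, so it was at least 737-fold higher, taking 3 counts over the cortical group as the floor. The untreated libraries differed, with Cd163 at 116 and 465 CPM, and taken alone they gave at least 309-fold and 1234-fold. On the same floor F13a1, the coagulation factor XIII A chain, was at least 580-fold higher with 63 counts. The chemokine Pf4 was at least 415-fold higher with 45 counts. Ms4a7, a tetraspan membrane protein, Ccr2 and Cd209a, the mouse DC-SIGN homologue, were at least 147-fold, 166-fold and 82.9-fold higher. For Ccr2 the libraries alone gave at least 68.6-fold and 279-fold, and for Ms4a7 85.7-fold and 219-fold. Cd209a had 3 counts in untreated library 1, which allows no bound there. Plac8, a small cysteine-rich protein of myeloid cells, had 2 counts against 0, which allows no fold. In edgeR's quasi-likelihood test, 8 members passed the filter on low counts and all 8 were higher in the Cx3cr1-Cre libraries at an adjusted p below the 0.05 threshold, against 21.8% of the 9421 genes tested. These members passed the filter only through the Cx3cr1-Cre libraries, so a tested member could hardly come out otherwise. The count of calls is therefore no support beyond the counts above. When either untreated library was left out, 5 members passed the filter and all 5 were called. Tissue and line differ together in this comparison, whole brain against cortex, and cannot be told apart.

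**Figure D1:**
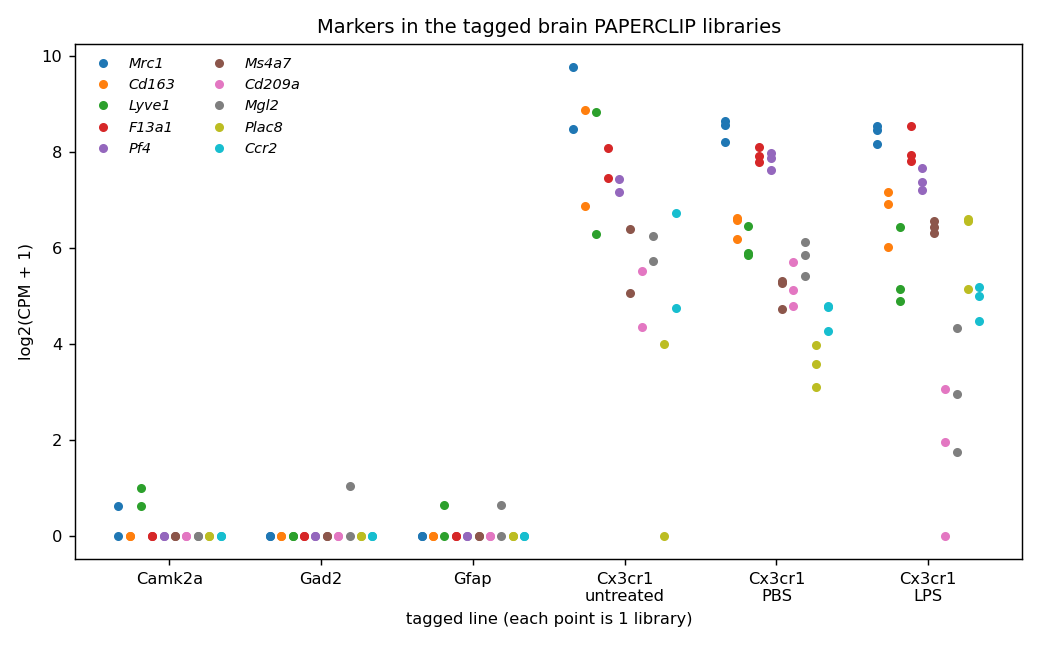
Level of each marker, as log2(CPM + 1) on the library total, in every tagged brain PAPERCLIP library; each point is 1 library and each colour 1 gene. The 6 cortical libraries lie near 0, and the 2 untreated Cx3cr1 libraries differ from each other for Cd163, Lyve1 and Ccr2.

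After LPS some markers rose and others fell. In PAPERCLIP all 10 passed the filter on low counts, 2 rose and 2 fell, against 2.74% higher and 0.791% lower of the 5692 genes tested, 3.53% in either direction. In RNA-seq 3 of 10 rose and 4 fell, against 15.9% higher and 10.4% lower of 10267 genes tested, 26.4% in either direction. In both assays Cd209a and Mgl2 passed the filter through the PBS libraries alone, and Plac8 through the LPS libraries alone. The filter was thus not neutral for these genes, and the shares of all genes are given for scale only. Library totals in place of TMM factors turned the RNA-seq split of all genes from 1634 higher and 1072 lower to 1282 higher and 1641 lower, while every member called kept its direction. The 4 markers called in PAPERCLIP were called in the same direction in RNA-seq, 3 more were called in RNA-seq, and 3 in neither. The median log2 change of the 10 was 0.04 in PAPERCLIP, against -0.01 over all genes, and -0.42 in RNA-seq, against -0.02. Groups did not overlap for 5 members in PAPERCLIP (21.3% of all genes) and for 6 in RNA-seq (40.6%). Normalised CPM are counts scaled to TMM-adjusted library totals, log2 changes carry their SE, and adjusted p-values come from edgeR's quasi-likelihood test with Benjamini-Hochberg adjustment over all genes.

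**Figure D2:**
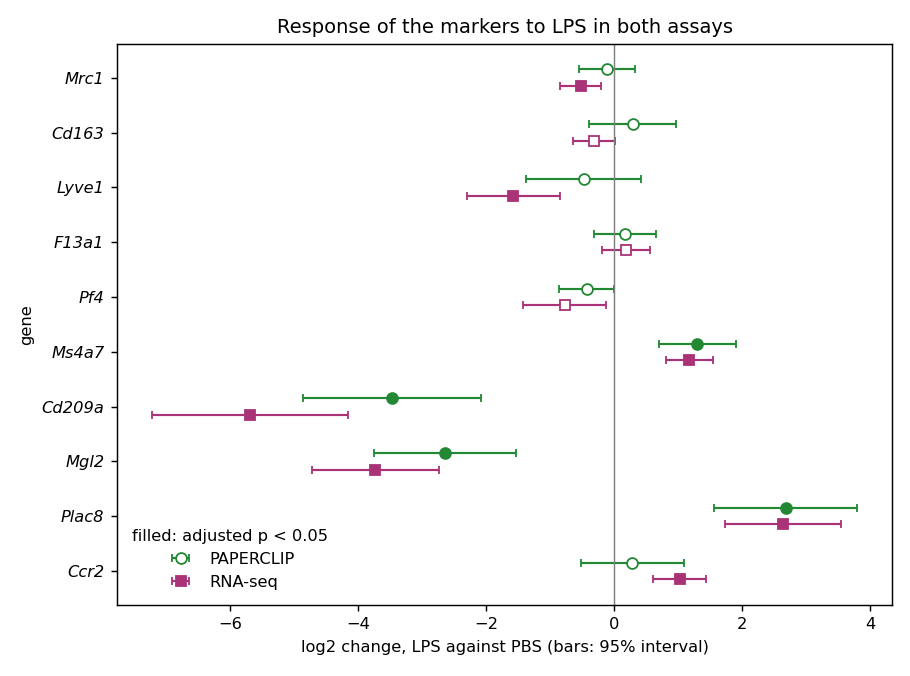
Log2 change after LPS against PBS (horizontal axis) for each marker (vertical axis) in PAPERCLIP (circles) and RNA-seq (squares); bars are 95% intervals and filled symbols have an adjusted p under 0.05. Cd209a and Mgl2 lie far below 0 and Plac8 and Ms4a7 above it in both assays, while F13a1 and Cd163 stay near 0.

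Both dendritic lectins fell, and in RNA-seq they were almost gone. Cd209a stood at 52.8, 36.3 and 27.9 normalised CPM in the PBS libraries of PAPERCLIP and at 2.95, 7.90 and 0 after LPS. The groups did not overlap, and the log2 change was -3.47 (SE 0.64, edgeR adjusted p = 0.00785). These levels rest on 14, 9 and 9 counts against 3, 5 and 0. In RNA-seq Cd209a had 20.8, 9.32 and 13.1 normalised CPM after PBS and 0, 0.488 and 0 after LPS, again without overlap.

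That is 78 counts against 1, a PBS level 76.3 times the LPS level (95% counting interval 13.3 to 3053), and the fitted log2 change was -5.69 (SE 0.70, edgeR adjusted p = 0.000103), or -7.53 without LPS library 2, which held the single count. Cd209a belongs to a family of closely related lectin genes, so reads could be split between copies and its counts are uncertain to that extent. Mgl2 (CD301b), a lectin of dermal and other type 2 dendritic cells and of some macrophages, fell too. Its PAPERCLIP values were 71.6, 60.6 and 43.4 normalised CPM after PBS and 6.88, 20.5 and 2.43 after LPS. All LPS libraries were below all PBS libraries, with a log2 change of -2.64 (SE 0.51, edgeR adjusted p = 0.0108). In RNA-seq Mgl2 had 31.6, 29.5 and 27.2 normalised CPM after PBS and 0, 1.95 and 5.03 after LPS. The RNA-seq groups did not overlap either, with a log2 change of -3.73 (SE 0.45, edgeR adjusted p = 9.77e-05).

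Clec10a, the neighbouring copy of Mgl2 and singled out after its values were seen for that reason, had 18.8, 18.6 and 15.8 normalised CPM in RNA-seq after PBS and 7.64, 6.34 and 7.54 after LPS. It fell by 1.31 on the log2 scale (SE 0.26, edgeR adjusted p = 0.00290), and how reads were divided between Clec10a and Mgl2 is not given in the sources used here. Cd209f, a relative of Cd209a, had 37.7, 44.4 and 83.6 normalised CPM in PAPERCLIP after PBS and 84.6, 90.1 and 60.8 after LPS. These groups overlapped, with a log2 change of 0.47 (SE 0.32, edgeR adjusted p = 0.512). On a list of 14 other dendritic cell genes, 4 were tested in RNA-seq, of which 1 rose and 1 fell, with a median log2 change of -0.13. Of all genes tested there, 15.9% rose and 10.4% fell. Itgax, the CD11c integrin chain that activated microglia also make, had 22.7, 17.9 and 25.6 normalised CPM in RNA-seq after PBS and 126, 131 and 123 after LPS. It rose by 2.50 (SE 0.14, edgeR adjusted p = 7.55e-07) in RNA-seq and by 1.70 (SE 0.35, edgeR adjusted p = 0.0158) in PAPERCLIP. The PAPERCLIP rise of Itgax did not pass without PBS library 1 (adjusted p = 0.103), without PBS library 3 (0.1005), without replicate 3 of both groups (0.139) or after thinning (0.249). Fscn1, an actin-bundling protein of mature dendritic cells and of neurons and microglia, fell by 0.76 on the log2 scale in RNA-seq (SE 0.12, edgeR adjusted p = 0.000567). In PAPERCLIP 3 of the 14 were tested, and Itgax was the 1 that passed, against 3.53% of all genes in either direction. Itgax, at 18.9, 40.4 and 18.6 normalised CPM there after PBS, passed the filter on low counts only with its LPS libraries.

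Plac8 rose in both assays, and Ccr2 rose in RNA-seq and did not pass in PAPERCLIP. Plac8 had 11.3, 8.08 and 15.5 normalised CPM in PAPERCLIP after PBS and 98.3, 99.6 and 35.3 after LPS, on 3, 2 and 5 counts against 100, 63 and 29. The groups did not overlap, and the log2 change was 2.68 (SE 0.52, edgeR adjusted p = 0.0105). In RNA-seq the Plac8 values were 3.95, 1.55 and 11.97 normalised CPM after PBS and 41.7, 45.4 and 26.8 after LPS. These groups were also apart, with a log2 change of 2.63 (SE 0.41, edgeR adjusted p = 0.000622), which became 3.65 without PBS library 3. That library also had 255 normalised CPM of the neutrophil gene S100a8, against 48.4 and 27.2 in the other PBS libraries, and its part in the result was not tested.

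Ccr2 had 33.6, 33.4 and 39.7 normalised CPM in RNA-seq after PBS and 57.7, 93.6 and 62.8 after LPS. All LPS libraries were above all PBS libraries, and Ccr2 rose by 1.02 (SE 0.19, edgeR adjusted p = 0.00203). In PAPERCLIP it had 18.9, 28.3 and 27.9 normalised CPM after PBS and 36.4, 33.2 and 21.9 after LPS. Those groups overlapped, with a log2 change of 0.28 (95% interval -0.52 to 1.09, edgeR adjusted p = 0.777).

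Of the 3 ligands of Ccr2, 2 were tested in the tagged brain and both rose, against 2.74% of all genes tested there. Ccl2 passed the filter on low counts through the LPS libraries alone, so a fall could hardly have been called for it. Ccl2, the main monocyte chemoattractant, had 18.9, 4.04 and 6.19 normalised CPM in PAPERCLIP after PBS and 243, 245 and 42.6 after LPS, a log2 change of 4.17 (SE 0.75, edgeR adjusted p = 0.00684). Ccl2 did not pass when PBS library 1, 2 or 3 was left out (adjusted p = 0.0508, 0.0644 and 0.0598). Ccl12 rose as well in PAPERCLIP, by 2.63 (SE 0.42, edgeR adjusted p = 0.00300). In RNA-seq Ccl2 had 32.1, 45.0 and 50.6 normalised CPM after PBS and 38.2, 65.8 and 41.9 after LPS, with overlap and a log2 change of 0.24 (SE 0.23, edgeR adjusted p = 0.494). Ccl12 rose in RNA-seq by 0.89 (SE 0.26, edgeR adjusted p = 0.0242), but by 0.46 without LPS library 2 (adjusted p = 0.136), and it did not pass without PBS library 1 (0.0606) or PBS library 2 (0.0725) either. Ccl7 stood at -0.02 (SE 0.48, edgeR adjusted p = 0.984). Ccl7 was not tested in PAPERCLIP for its low counts, and these 3 chemokine genes are close copies of one another.

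**Figure D3:**
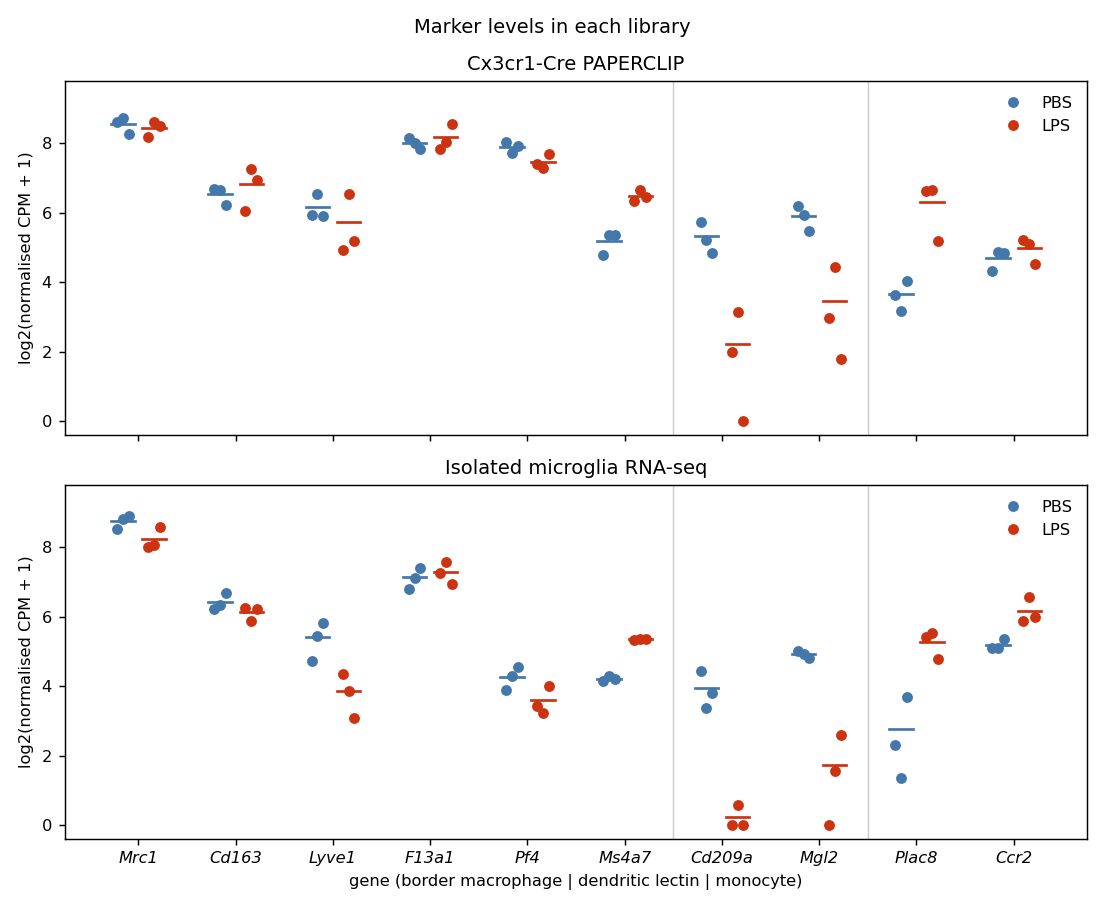
Normalised CPM of each marker in every PBS (blue) and LPS (red) library, as log2(normalised CPM + 1), in PAPERCLIP (top) and microglial RNA-seq (bottom); lines mark the group means. Cd209a and Mgl2 lie lower in all LPS libraries of both assays and Ms4a7 and Plac8 higher, while Mrc1, Cd163 and F13a1 overlap between the groups.

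Of the 6 border macrophage markers 1 rose and none fell in PAPERCLIP, against 2.74% and 0.791% of all genes, with a median log2 change of 0.04. In RNA-seq 1 rose and 2 fell, with a median of -0.42, and there 15.9% of all genes rose and 10.4% fell, so 1 of 6 rising is near the background. Ms4a7 was the one that rose in both. It had 26.4, 40.4 and 40.3 normalised CPM in PAPERCLIP after PBS and 79.6, 99.6 and 87.5 after LPS. No LPS library reached down to the PBS range, and the log2 change was 1.30 (SE 0.28, edgeR adjusted p = 0.0197). In RNA-seq the Ms4a7 values were 16.8, 18.6 and 17.4 after PBS and 38.9, 40.0 and 40.2 after LPS, a narrow spread within each group. The log2 change there was 1.18 (SE 0.17, edgeR adjusted p = 0.000293).

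Lyve1 and Mrc1 fell in RNA-seq, and Pf4 did not pass there. Lyve1 had 25.7, 42.7 and 56.0 normalised CPM after PBS and 19.5, 13.7 and 7.54 after LPS. Its groups did not overlap, and it fell by 1.57 on the log2 scale (SE 0.33, edgeR adjusted p = 0.00437). Mrc1 had 366, 455 and 477 normalised CPM in RNA-seq after PBS and 256, 269 and 383 after LPS. The highest LPS library lay above the lowest PBS library, and the fall of 0.52 (SE 0.15, edgeR adjusted p = 0.0218) did not pass without PBS library 2 (adjusted p = 0.0897), LPS library 1 (0.132) or LPS library 2 (0.0810). Pf4, a heparin-binding chemokine of platelets and border macrophages, had 13.8, 18.6 and 22.3 normalised CPM after PBS and 9.73, 8.29 and 15.1 after LPS in RNA-seq. These overlapped, with a log2 change of -0.77 (SE 0.30, edgeR adjusted p = 0.0786), and without LPS library 3 it passed at -1.01 (adjusted p = 0.0326).

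In PAPERCLIP none of these 3 passed. Lyve1 had 60.3, 92.9 and 58.8 normalised CPM after PBS and 29.5, 91.7 and 35.3 after LPS. LPS library 2 stood among the PBS values, and the log2 change was -0.48 (95% interval -1.37 to 0.42, edgeR adjusted p = 0.637). Pf4 was at 260, 210 and 245 normalised CPM after PBS and 167, 156 and 207 after LPS. The lowest PBS library was just above the highest LPS library, with a log2 change of -0.43 (SE 0.20, edgeR adjusted p = 0.317). Mrc1 had 392, 428 and 307 after PBS and 293, 395 and 359 after LPS, which overlapped widely, with a log2 change of -0.10 (95% interval -0.54 to 0.33, edgeR adjusted p = 0.853).

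Cd163 and F13a1 passed in neither assay. Cd163 had 102, 101 and 74.3 normalised CPM in PAPERCLIP after PBS and 64.9, 153 and 123 after LPS, a log2 change of 0.29 (95% interval -0.39 to 0.98, edgeR adjusted p = 0.723). In RNA-seq Cd163 had 73.7, 80.0 and 101 after PBS and 75.7, 58.0 and 73.7 after LPS, a log2 change of -0.31 (95% interval -0.65 to 0.02, edgeR adjusted p = 0.155). Both pairs of groups overlapped. F13a1 had 283, 258 and 229 normalised CPM in PAPERCLIP after PBS and 227, 262 and 379 after LPS, a log2 change of 0.18 (95% interval -0.31 to 0.66, edgeR adjusted p = 0.770). In RNA-seq F13a1 had 111, 138 and 169 after PBS and 154, 192 and 123 after LPS, also 0.18 (95% interval -0.19 to 0.56, edgeR adjusted p = 0.483). The groups overlapped, and leaving out the number 3 library of both RNA-seq groups, whose file names carry another letter, gave 0.51 (adjusted p = 0.00196). An interval around 0 does not show that these levels were equal.

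Differences between the assays were tested in a joint fit of both, as the RNA-seq log2 change minus the PAPERCLIP one. In edgeR 0 of 10 markers passed, and DESeq2 called 0 as well, while 0.00984% of 10165 genes passed in edgeR. An unadjusted p under 0.05 was found for 0 of the 10 markers and for 919 of the 10165 genes. The widest gap was that of Cd209a, at -2.02 (95% interval -4.57 to 0.53). Lyve1 differed by -1.15 (95% interval -2.40 to 0.11), and Ccr2 by 0.66 (95% interval -0.25 to 1.58). For Plac8 the difference was -0.13 with an interval of -2.23 to 1.96, which leaves large differences within its bounds. The calls made in RNA-seq and not in PAPERCLIP are thus not shown to differ between the assays. The assays also differ in mice, in cell selection and in depth.

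The 4 PAPERCLIP calls rested on few libraries. Without PBS library 1 none of Cd209a, Mgl2, Plac8 and Ms4a7 passed (adjusted p from 0.0806 to 0.105), nor without PBS library 2 (0.0528 to 0.0708), and without PBS library 3 the 2 lectins passed while Plac8 and Ms4a7 did not (0.0503 and 0.0655). Without LPS library 1 Mgl2 did not pass (0.0522), and without LPS library 2 Ms4a7 did not (0.0569), while without LPS library 3 all 4 passed. Thinned to the depth of the shallowest library, Mgl2 (0.135) and Plac8 (0.0550) did not pass, Cd209a was not tested, and Ms4a7 passed. The fall of Cd209a became -4.38 and that of Mgl2 -3.51 without LPS library 2, which held most of their LPS counts. The direction of each stayed the same in every such fit. With the replicate number as a block, 423 genes were called in place of 201, and the same 4 markers passed, with an adjusted p of 0.000505 for Cd209a, 0.000297 for Mgl2, 0.000274 for Plac8 and 0.00381 for Ms4a7.

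The summed border macrophage markers were also set against the summed homeostatic microglial list of the same library. In PAPERCLIP there were 31.8, 32.0 and 28.9 border macrophage counts per 1000 microglial counts after PBS and 33.6, 44.3 and 41.6 after LPS. In RNA-seq there were 14.6, 18.9 and 21.5 after PBS and 19.6, 23.4 and 20.5 after LPS. The LPS ratios were thus above the PBS ratios in PAPERCLIP, and overlapped with them in RNA-seq. Untreated Cx3cr1-Cre libraries 1 and 2 had 24.03 and 66.1, below and above every PBS and LPS ratio of PAPERCLIP. Libraries of the same condition could thus lie further apart than the PBS and LPS groups did. The denominator moved too: of its 12 genes, 4 fell and none rose in PAPERCLIP, and 11 fell and none rose in RNA-seq. The share of all genes that fell was 0.791% in PAPERCLIP and 10.4% in RNA-seq. P2ry12, the purinergic receptor of resting microglia, fell by 0.92 (SE 0.17, edgeR adjusted p = 0.00733) and by 1.52 (SE 0.19, edgeR adjusted p = 0.000102). Its PAPERCLIP fall did not pass without PBS library 1 (adjusted p = 0.0742) or with all 14 tagged brain libraries in the fit (0.105). Cx3cr1, whose promoter drives the Cre, had a log2 change of -0.28 (SE 0.21, edgeR adjusted p = 0.577) in PAPERCLIP and fell by 0.59 in RNA-seq (SE 0.11, edgeR adjusted p = 0.00176).

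Further genes of the same cell types were taken from fixed lists, which were drawn up with earlier results of these data known. Of 20 other border macrophage genes, 16 were tested in PAPERCLIP, where 4 rose and 1 fell with a median log2 change of 0.22. In RNA-seq 18 were tested, of which 8 rose and 5 fell, with a median of -0.13. Of all genes tested, 2.74% rose and 0.791% fell in PAPERCLIP, and 15.9% rose and 10.4% fell in RNA-seq. Cp, the ferroxidase ceruloplasmin, rose by 2.81 (SE 0.46, edgeR adjusted p = 0.00362) in PAPERCLIP and by 3.13 (SE 0.20, edgeR adjusted p = 1.69e-06) in RNA-seq. Siglec1, the sialic acid receptor CD169, rose by 1.92 (SE 0.45, edgeR adjusted p = 0.0308) and 2.06 (SE 0.20, edgeR adjusted p = 1.71e-05). In PAPERCLIP Cp and Siglec1 passed the filter on low counts only with their LPS libraries, so the filter was not neutral for them. Ms4a6c, which lies in the same gene cluster as Ms4a7, rose by 1.66 (SE 0.23, edgeR adjusted p = 0.00148) and 2.06 (SE 0.22, edgeR adjusted p = 3.97e-05). Hpgd, which degrades prostaglandins and is also expressed by microglia, fell by 0.75 (SE 0.18, edgeR adjusted p = 0.0396) and by 1.34 (SE 0.14, edgeR adjusted p = 2.86e-05). The list thus had called members on both sides of 0.

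Other monocyte genes lay mostly above 0. Of 18, 6 were tested in PAPERCLIP and 4 of these rose, with a median log2 change of 1.67, and 17 were tested in RNA-seq, of which 13 rose and none fell, with a median of 2.00. The share of all genes that rose was 2.74% in PAPERCLIP and 15.9% in RNA-seq. Ms4a4c and Cd44, which rose in PAPERCLIP, passed the filter on low counts there through the LPS libraries alone. A fall could thus hardly have been called for them. Itgal, the LFA-1 integrin chain, had 26.4, 28.3 and 37.2 normalised CPM in PAPERCLIP after PBS and 368, 548 and 224 after LPS, a rise of 3.60 (SE 0.37, edgeR adjusted p = 0.000144). In RNA-seq Itgal rose by 3.10 (SE 0.31, edgeR adjusted p = 2.09e-05). Cd44, the hyaluronan receptor, rose by 2.09 (SE 0.43, edgeR adjusted p = 0.0158) in PAPERCLIP and by 3.02 (SE 0.26, edgeR adjusted p = 7.73e-06) in RNA-seq. In PAPERCLIP Cd44 did not pass when PBS library 1, 2 or 3 (adjusted p = 0.0899, 0.0528 and 0.102) or LPS library 1 (0.0649) was left out. Spn, the leukosialin CD43, rose by 3.25 in RNA-seq (SE 0.32, edgeR adjusted p = 1.83e-05), and Itga4, the VLA-4 integrin chain, by 2.00 (SE 0.19, edgeR adjusted p = 1.48e-05). These 4 are adhesion molecules that lymphocytes also carry. Many members were low in PAPERCLIP, where 8 to 11 of the 18 had no count in a PBS library and 3 to 5 had none in an LPS library.

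**Figure D4:**
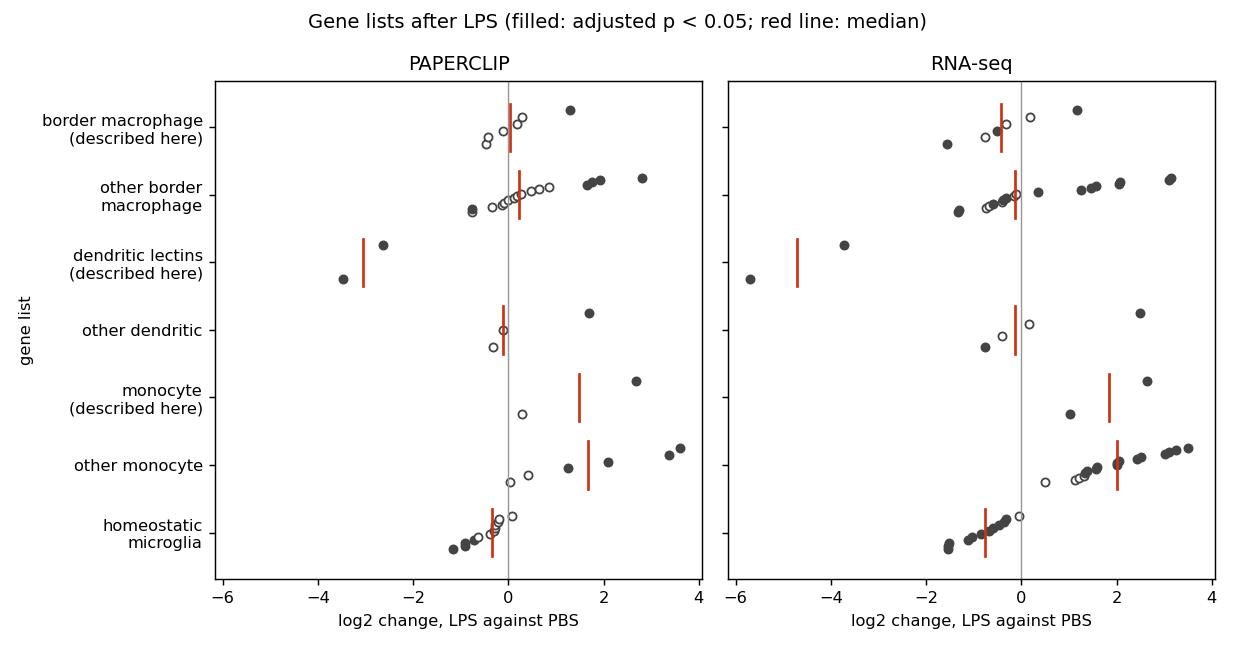
Log2 change after LPS (horizontal axis) of every tested gene of 7 lists (vertical axis) in PAPERCLIP (left) and RNA-seq (right); each point is 1 gene, filled where the adjusted p is under 0.05, and red lines mark list medians. The other monocyte genes lie above 0, the homeostatic microglial genes mostly below it, and both border macrophage lists on both sides.

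Markers of some other cells moved in the same samples. In RNA-seq 15.9% of all genes tested rose and 10.4% fell, so a list with 1 call among 10 or 6 tested genes is near the background. In RNA-seq the summed level of 10 T and NK cell genes was 51.8 to 62.4 CPM after PBS and 139 to 197 after LPS, with 4 to 5 of the 10 at 0 after PBS and 1 to 2 after LPS, and of 5 tested 3 rose and 1 fell. Of 6 B cell genes 3 were tested and 2 rose, with sums of 321 to 351 CPM after PBS and 272 to 400 after LPS. The 12 neutrophil genes summed to 861 to 2207 CPM after PBS and 1695 to 1832 after LPS, and 1 of 10 tested rose. The 4 erythroid genes fell from 101 to 115 CPM down to 5.62 to 16.0, and 3 of 3 tested passed. These 3 passed the filter on low counts only with their PBS libraries. The 7 fibroblast and mural genes summed to 275 to 527 CPM after PBS and 50.6 to 154 after LPS, and 3 of 4 tested fell. The 6 platelet genes, which bear on Pf4, summed to 21.1 to 25.2 CPM after PBS and 11.7 to 12.8 after LPS, and the platelet glycoprotein gene Gp9 fell by 0.97 on the log2 scale (SE 0.26, edgeR adjusted p = 0.0155). Gp9 did not pass with DESeq2 (adjusted p = 0.158) or without PBS library 1 (0.0836), LPS library 1 (0.0624) or LPS library 2 (0.0693). In PAPERCLIP the platelet list summed to 65.1 to 87.0 CPM after PBS and 21.2 to 39.8 after LPS, and 8 to 10 of 11 neutrophil genes were at 0. Gp9 was the only platelet gene tested there, at 79.2, 80.8 and 40.3 normalised CPM after PBS and 28.5, 33.2 and 15.8 after LPS. It did not pass (edgeR adjusted p = 0.0650). Of 5 genes of resident macrophages in other organs, Marco, a scavenger receptor, and Cd5l, a secreted protein of macrophages, rose in RNA-seq, 2 of 3 tested, and the list summed to 4.78 to 7.43 CPM after PBS and 228 to 681 after LPS. In PAPERCLIP that list summed to 2.96 to 18.8 CPM after PBS and 70.7 to 73.1 after LPS. Marco and Cd5l passed the filter on low counts in RNA-seq only with their LPS libraries. Of 6 endothelial genes 1 fell in RNA-seq, with sums of 423 to 990 CPM after PBS and 221 to 502 after LPS, which bears on Lyve1, a gene of lymphatic endothelium as well. The 6 hepatocyte genes summed to 1749 to 7686 CPM in RNA-seq after PBS and 1440 to 1849 after LPS, with 3 to 4 of them at 0. The one tested was Ttr, a transport protein also made by the choroid plexus, with 7673, 6959 and 1666 normalised CPM after PBS and 1534, 1921 and 1833 after LPS, groups that overlapped, and it was lower by a log2 change of -1.62 (SE 0.40, edgeR adjusted p = 0.0106). The part of these cells in the marker changes was not tested.

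The injection control was compared with untreated brain in PAPERCLIP. In edgeR 0 of 10 markers passed, and 2.01% of 5112 genes were called. An unadjusted p under 0.05 was found for 4 of the 10 markers and for 987 of the 5112 genes. DESeq2 called 1 marker. The untreated libraries disagreed with each other: Cd163 had 133 and 492 normalised CPM there and 101, 101 and 74.7 after PBS, a log2 change of -1.75 (SE 0.49, edgeR adjusted p = 0.0752). Lyve1 had 88.4 and 476 in the untreated libraries and 60.0, 92.6 and 59.2 after PBS, a log2 change of -1.99 (SE 0.61, edgeR adjusted p = 0.0984). F13a1, at 199 and 286 untreated against 281, 258 and 230 after PBS, overlapped, with a log2 change of 0.08 (SE 0.32, edgeR adjusted p = 0.916). With both libraries in the fit 1.47% of all genes were lower after PBS. Without untreated library 1, Lyve1, Mrc1, Cd163 and Ccr2 passed as lower, and so did 3.92% of the 6536 genes tested in that fit. Cd209a and Mgl2, which fell after LPS, had log2 changes of 0.16 (95% interval -1.55 to 1.87) and -0.25 (95% interval -1.54 to 1.04) here.

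Genes whose pattern over the 6 microglial RNA-seq libraries was most like the mean log2 level of the 6 border macrophage markers were Dgkd, a diacylglycerol kinase, with r = 0.981, a gene without a symbol (ENSMUSG00000099597) with 0.980, Slc3a2, the amino acid transporter chain CD98, and Zfp235 with 0.978, Mttp with 0.973, and Dgka, another diacylglycerol kinase, with 0.972. There were 10238 candidates with a mean of at least 5 CPM. The mean log2 level of the markers was 5.72, 6.06 and 6.26 after PBS and 5.77, 5.67 and 5.70 after LPS, so the groups overlapped and PBS library 1 lay among the LPS libraries. Dgkd had 260, 312 and 338 normalised CPM after PBS and 261, 262 and 251 after LPS. None of the 6 genes passed the test between LPS and PBS, and these r are a description over 6 libraries.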

How the data were processed

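Each file holds the number of reads per gene of 1 library, as whole-number raw counts that the authors deposited. Cutadapt, Novoalign (PAPERCLIP), STAR (RNA-seq) and build mm10 are named in the submitters' processing notes. PAPERCLIP linkers hold a 7-base random barcode and RNA-seq used a TruSeq v2 kit after poly(A) selection, per the labels' protocols. Collapsing of barcode duplicates, the rule for assigning reads to genes and the use of strand: not given in the sources used here.

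Groups came from the sample titles. The members and all gene lists were chosen with earlier results of these data known. Genes were tested with edgeR 4.0.16 in R 4.3.3 (quasi-likelihood test, TMM factors, filterByExpr), and p-values were adjusted by the Benjamini-Hochberg method across the genes tested, with a threshold of 0.05. Each LPS comparison used its own 6 libraries, the assay difference used 12 libraries joined by symbol, PBS against untreated was fitted with the LPS libraries included, and the line comparison used the 2 untreated and 6 cortical libraries. The SE comes from the F statistic, and 95% intervals use its degrees of freedom. CPM of summed lists use library totals. Ratios to low counts have exact binomial intervals, and a count of 0 was set to a floor of 3 counts over the group. Fits were checked on simulated counts. Named genes are all members, up to 4 (RNA-seq) and 3 (PAPERCLIP) genes with the smallest p from each list, of which a part is given, the Ccr2 ligands, Cx3cr1, and 6 genes by likeness.

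Whether replicate numbers pair the libraries was examined by correlating each library's deviation from its group mean, over genes with 20 CPM or more. In PAPERCLIP same-numbered PBS and LPS libraries correlated at 0.124, 0.260 and 0.193, with negative values for all other pairings. Deviations from a group mean cancel within the group, so positive same-number values force negative ones among the other pairings, which add no support. Any pairing was thus read from the data alone. The main fits held no term for it, and the replicate block was an alternative only. Alternatives were RLE and total-count scaling, no filter, a mean of at least 5 CPM, DESeq2 1.42.0, a replicate block, a term for file-name prefixes, leaving out replicate 3 of both groups, all 14 tagged brain libraries, thinning to the shallowest library, and leaving out each library.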

Additional observations from a re-analysis of the deposited data

Results flagged for a closer look

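Libraries outside the comparisons also held the markers. Ptbp2-KO cortex at E18.5, measured by RNA-seq in 3 libraries, had mean levels of 35.4 CPM for Mrc1, 28.8 for F13a1, 9.68 for Lyve1, 3.84 for Cd163, 2.46 for Pf4, 0.840 for Ms4a7, 0.499 for Ccr2 and 0.406 for Mgl2. Each was above what 3 counts would give in these libraries, and no control cortex was analysed here. The single liver PAPERCLIP library, with no Cre line named, had Mrc1 at 69.1 CPM on 8 counts.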

How the results depend on the processing

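Over the 16 alternatives for PAPERCLIP, Cd209a, Mgl2, Plac8 and Ms4a7 kept their direction wherever they were tested. DESeq2, and leaving out replicate 3 of both groups, each lost Ms4a7 (adjusted p = 0.0545 and 0.0613), while thinning left 1 member called, and leaving out single libraries left 0 to 4. The 201 genes called in PAPERCLIP became 632 with no filter, 423 with the replicate block, 317 with the prefix term, 359 with all 14 brain libraries, 83 after thinning and 74 to 167 without single libraries. In RNA-seq 6 to 8 members passed in every alternative. There, total counts in place of TMM moved the median of all genes from -0.02 to -0.13. Same-numbered RNA-seq libraries correlated at 0.110, 0.097 and 0.188 in their deviations, and the other pairings at -0.164 to 0.104. These values do not settle whether the number pairs the libraries. The replicate block gave 2770 genes and 7 members in RNA-seq, and no member's call changed with it in either assay.

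For the difference between assays, called genes went from 1 to 114 with no filter, 105 with DESeq2, 57 with the replicate block and 1 to 37 without single libraries, with 0 members each time. For PBS against untreated, members called were 2 with no filter, 1 with DESeq2 and 0 to 4 without single libraries. Called genes there went from 103 to 313, 43 (5 CPM filter), 223 (DESeq2), 0 (thinned) and 3 to 495. Thinning left 4 members and 1030 genes in the comparison with the cortical lines, and leaving out single libraries left 5 to 8 members.

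Uncalled values changed sign. In PAPERCLIP, F13a1 gave -0.14 without replicate 3 of both groups and -0.061 to 0.34 without single libraries, and Mrc1 gave 0.080 with 14 libraries and -0.23 to 0.019 without single libraries. In RNA-seq Ccl7 gave 0.016 with the replicate block, 0.11 with the prefix term, 0.72 without replicate 3 of both groups and -0.45 to 0.70 without single libraries, where F13a1 gave -0.0014 to 0.35 and Ccl2 -0.080 to 0.40. Between assays, without single libraries, F13a1 gave -0.35 to 0.090 and Plac8 -0.61 to 0.87. For PBS against untreated, F13a1 gave -0.040 after thinning and -0.071 to 0.37 without single libraries, Cd209a -0.21 to 0.80 and Plac8 -0.32 to 5.57. The cause was not tested. Depth limits Cd209a, Mgl2 and Plac8, whose lower groups hold at most 5, 13 and 5 counts in a PAPERCLIP library.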
